A study of Mus musculus with 4 samples.

Results

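Lung surfactant and airway genes are a set of 10 mouse genes that mark the epithelium of the distal lung and the conducting airways. They are the surfactant protein genes Sftpa1, Sftpb, Sftpc and Sftpd, the secretoglobin genes Scgb1a1, Scgb3a1 and Scgb3a2, the receptor gene Ager, the transcription factor gene Nkx2-1 and the lysosomal membrane protein gene Lamp3. The rule takes members by gene name, and every non-control probe under those names was read. The array names 9 of the 10 genes, with 13 probes, among 27660 named genes or transcripts in all. The tenth, Nkx2-1, is listed under its older name Titf1 and was added through its RefSeq transcript, which brought the probes to 14. Of the 10 genes, 8 had a single probe.

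The study set neural progenitor cell (NPC) lines against a pooled RNA to find transcription factors that stand out in NPCs. Each of 4 samples was labelled with Cy3 from 0.25 ug of total RNA and hybridised to its own Agilent array. Mixture is a pool of equal masses of RNA from lung, liver, spleen, thymus, kidney and heart and from embryo at day 11, of Swiss Webster mice. NS21 and NSEB5-2C (strain 129/Ola) and NS195R (129/Sv) are NPC lines derived from the embryonic stem cell lines 21, EB5 and 195R. No treatment or age is given for the lines. Each line was hybridised a single time, so the spread between the 3 lines holds line differences and technical error together. No line has the Swiss Webster strain, so an effect of strain and an effect of cell type cannot be told apart here. In a pool, fewer cells of a type and less RNA per cell cannot be told apart either.

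Type II cells of the alveolus make surfactant, a film of lipid and protein that keeps the air spaces from collapsing. The hydrophobic proteins SFTPB and SFTPC spread the lipid film, and SFTPA1 and SFTPD are collectins, lectins that bind microbes and take part in lung defence. Club cells of the airways secrete small secretoglobins, of which SCGB1A1 is the best known. NKX2-1 is the transcription factor that specifies the lung bud, and it also acts in the thyroid and the ventral forebrain. Neural progenitors are not a known source of surfactant.

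All 10 genes gave signal well above background, the scanner software's flag for a spot brighter than its surroundings, in Mixture. Of the lines, NS21 had such signal for 2 of them, NS195R for 3 and NSEB5-2C for 1. Each count includes Lamp3 through its brightest probe alone, which is also listed for another gene. With limma (lmFit and eBayes, adjusted p under 0.05 by Benjamini-Hochberg over all 19823 genes tested), 9 members fell below Mixture in the lines and 0 were higher. Over all genes tested 8.91% were lower and 0.948% higher, and 10.3% were well above background in Mixture and in no line. The split of all genes, 1767 lower and 188 higher, was 1965 and 969 with normexp background correction and 1631 and 588 with quantile normalization. Of the 10 members, 7 entered the test through their Mixture signal alone and so had to differ, and the count of 9 carries no weight of its own. The members' median log2 ratio was -10.14, or -8.24 with dim values set to the lowest measurable signal, beside 0.44 and 0.31 over all genes. With 7 members tested through Mixture alone, the sign of this median was fixed too. For 15 markers of other pooled tissues the median was -10.63, or -9.54 with dim values so set. Of these 15, 12 were well above background in Mixture and in no line, so the sign of their median was fixed as well. A median this low was thus not confined to the lung members. Leaving out NS21, NS195R or NSEB5-2C ended every call, for the members and for all genes, and the 9 members then had limma adjusted p between 0.0548 and 0.125.

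A check of the labels bears on the Mixture array, since a label of that sample names another NPC line with Dox while its title, cell type and strain name the pool. Besides the lung members, all 15 markers of liver, kidney, heart, thymus and B cells in a list were well above background in Mixture, against 1, 2 and 0 in NS21, NS195R and NSEB5-2C. Their summed processed signal was 257649.6 in Mixture and between 36.3 and 84.3 in the lines. Of 10 neural progenitor markers, Mixture had 9 well above background, NS21 7, NS195R 10 and NSEB5-2C 8. Sox2, Fabp7 and Hes5 were not well above background in NS21, and Fabp7 and Hes5 were not in NSEB5-2C.

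Signals below are processed intensities, background-subtracted and not yet scaled between arrays. The upper quartile used for scaling was 259 in Mixture and 238, 252 and 232 in NS21, NS195R and NSEB5-2C, so the arrays differ little in this. The lowest signal well above background was 8.10, 7.19, 6.92 and 6.36 in the same order. Where no line rose above background, only a lower limit can be given ("at least" a fold): Mixture against, per line, the higher of the probe's own signal and that lowest signal, after scaling. A limit given for the lines together uses the mean of these log2 values over the lines, so the limit for a single line can be lower. Probes differ in sensitivity, so levels are compared across arrays for each gene and never between genes.

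Promoters of Sftpa1, Sftpb and Scgb3a1 are shown because these genes had high signal in Mixture and none well above background in the lines. That of Lamp3 is shown for contrast, since its brightest probe, which is also listed for another gene, did not follow them. The RefSeq table of promoters (build GRCm38.p6) matched 6 of the 10 members: Sftpa1, Sftpb, Scgb3a1, Ager, Nkx2-1 and Lamp3. Windows are the 250 bases before the gene's start, 5′ to 3′ on the gene's strand. Sftpa1 is chr14:41131538-41131787 (+), Sftpb chr6:72304360-72304609 (+), Scgb3a1 chr11:49663345-49663594 (+) and Lamp3 chr16:19706366-19706615 (-). Capitals mark CTCAAG and CAAGTG, letters of NKX2 type sites, TGTTTAC, of FOXA sites, and TATAAA, the TATA box, each on either strand.
Sftpa1: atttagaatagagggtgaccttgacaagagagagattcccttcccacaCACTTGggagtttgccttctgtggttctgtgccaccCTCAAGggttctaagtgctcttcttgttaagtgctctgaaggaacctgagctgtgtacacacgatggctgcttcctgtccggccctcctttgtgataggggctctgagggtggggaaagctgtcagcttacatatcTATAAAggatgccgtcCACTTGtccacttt
Sftpb: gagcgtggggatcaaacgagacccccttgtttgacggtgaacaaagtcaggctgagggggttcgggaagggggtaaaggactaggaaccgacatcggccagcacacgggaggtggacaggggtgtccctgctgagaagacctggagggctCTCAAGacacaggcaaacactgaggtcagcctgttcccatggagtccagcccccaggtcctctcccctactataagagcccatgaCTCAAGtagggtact
Scgb3a1: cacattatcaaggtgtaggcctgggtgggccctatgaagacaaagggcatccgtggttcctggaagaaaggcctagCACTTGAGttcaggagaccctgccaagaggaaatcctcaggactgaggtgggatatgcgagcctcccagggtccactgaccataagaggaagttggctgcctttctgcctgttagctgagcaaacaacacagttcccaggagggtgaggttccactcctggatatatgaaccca
Lamp3: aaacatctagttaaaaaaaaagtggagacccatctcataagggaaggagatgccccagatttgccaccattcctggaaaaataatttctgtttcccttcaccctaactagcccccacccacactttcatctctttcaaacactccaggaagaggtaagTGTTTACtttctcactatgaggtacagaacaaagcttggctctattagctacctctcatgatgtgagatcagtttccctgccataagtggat

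NKX2 type letters stood in 3 of the 6 windows, those of Sftpa1, Sftpb and Scgb3a1, and in 22.6% of 32851 windows of this length in the table. In Sftpa1 they began 202, 166 and 14 bases before the gene's start and in Sftpb 100 and 15. In Scgb3a1 the CTCAAG and CAAGTG letters overlap on the reverse strand, at 172 and 174. TGTTTAC was found in the Lamp3 window alone, 92 bases before the start, and in 3.17% of all windows. TATAAA was found in the Sftpa1 window alone, 30 bases before the start, and in 12.4% of all. The windows of Ager and Nkx2-1 held no match. A match describes these letters and is not a binding site shown by the data.

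**Figure D1:**
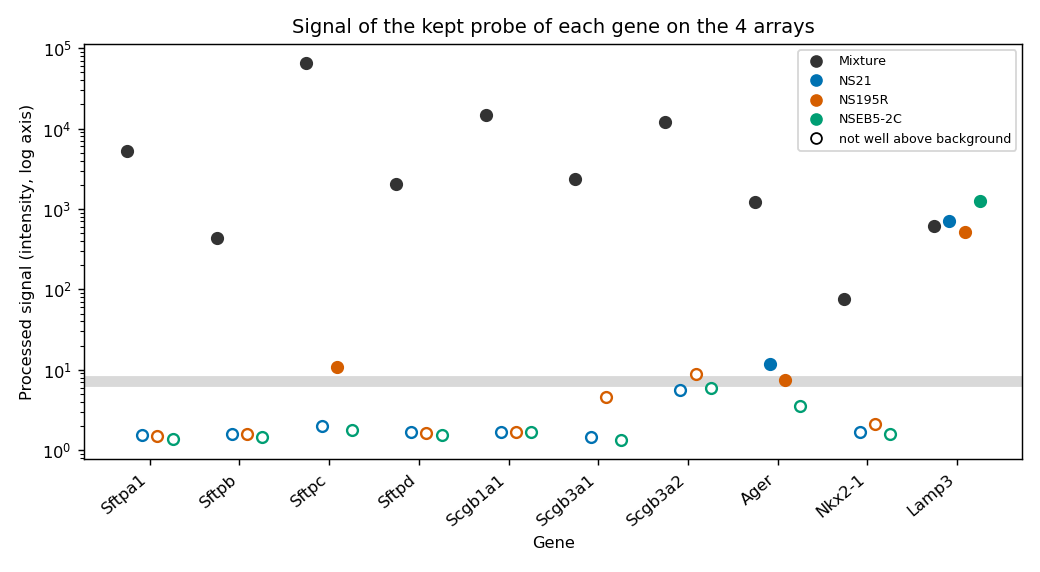
Processed signal (intensity, log axis) of the kept probe of each of the 10 genes on the 4 arrays, each point being 1 array, open where the spot was not well above background; the grey band spans the lowest signals well above background, 6.36 to 8.10. For 9 genes the Mixture point stands alone above the lines, at 75.5 for Nkx2-1 to 65817 for Sftpc, while the 4 points of Lamp3 lie between 517 and 1263.

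The surfactant protein genes carried high signal in Mixture. Sftpc, which encodes a hydrophobic surfactant protein made by type II cells, read 65817 in Mixture and 2.01, 10.8 and 1.79 in NS21, NS195R and NSEB5-2C. Its NS195R spot was well above background, 5916-fold below Mixture after scaling, whereas the other lines lay at least 8441-fold (NS21) and at least 9288-fold (NSEB5-2C) below it. The groups did not overlap, and limma called the gene lower (adjusted p = 0.0186, lower in 3 of 3 lines).

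Sftpb, whose product is needed to form the surfactant film, read 432 in Mixture and 1.61, 1.61 and 1.44 in NS21, NS195R and NSEB5-2C. Its level was at least 59-fold lower there (limma adjusted p = 0.00846, with 3 of 3 lines below Mixture). The line values sit at the floor of the scanner, with an SD between them of 0.06 on the log2 scale (n = 3), so they show no order. The listed ends of the Sftpb probe lie 2572 bases apart and those of the Sftpc probe 261 bases, more than the probe length of 60 bases.

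Sftpa1 and Sftpd encode the collectins of surfactant. The kept Sftpa1 probe read 5318 in Mixture and 1.53, 1.48 and 1.38 in NS21, NS195R and NSEB5-2C, at least 727-fold lower (limma adjusted p = 0.00846, lower in 3 of 3 lines). The other Sftpa1 probe read 267 in Mixture and 1.59, 1.62 and 1.55 in the lines, at least 36.5-fold lower (limma adjusted p = 0.00906 with every probe tested, where 7.88% of probes were lower). For both probes all lines were at the floor. Sftpd read 2050.2 in Mixture and 1.70, 1.62 and 1.53 in the lines, at least 280.2-fold lower (limma adjusted p = 0.00846, lower in 3 of 3 lines).

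The secretoglobin genes had the same pattern. Scgb1a1, the marker of club cells, read 14588 in Mixture and 1.69, 1.67 and 1.70 in NS21, NS195R and NSEB5-2C. This made it at least 1993-fold lower (limma adjusted p = 0.00846, all 3 of 3 lines below Mixture), and no line could be told from another. Scgb3a2, an airway secretoglobin, read 12053 in Mixture and 5.57, 8.86 and 5.86 in the lines, at least 1516-fold lower (limma adjusted p = 0.00846, lower in 3 of 3 lines). None of its line values was flagged as well above background. Scgb3a1, another airway secretoglobin, read 2386 in Mixture and 1.47, 4.54 and 1.33 in the lines, at least 326-fold lower (limma adjusted p = 0.0177, lower in 3 of 3 lines).

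Ager, which encodes the receptor for advanced glycation end products and is abundant in alveolar type I cells, kept measurable signal in some lines. It read 1209 in Mixture and 11.7, 7.55 and 3.50 in NS21, NS195R and NSEB5-2C. NS21 and NS195R were well above background, 95.5-fold and 156-fold below Mixture, and NSEB5-2C was not, at least 171-fold below. The 3 lines lay far under Mixture without overlap (limma adjusted p = 0.0283), with an SD of 0.85 on the log2 scale between them.

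Nkx2-1 was measured by a probe spotted 10 times on each array. Its copies ranged from 70.9 to 78.9 in Mixture, with a median of 75.8, from 1.56 to 1.94 in NS21, from 1.54 to 6.08 in NS195R and from 1.44 to 1.81 in NSEB5-2C, after spots flagged as outliers were left out (2, 2, 0 and 1). All 10 copies were well above background in Mixture and 0 were in each line, NS195R included. The SD between copies was 0.0567 on the log2 scale in Mixture and 0.748 in NS195R. All 3 of 3 lines lay below Mixture (limma adjusted p = 0.0118). The bound was at least 10.3-fold for the mean of the lines and at least 9.68-fold for NS21. The Mixture signal of Nkx2-1 was modest, so its bound is close to the floor, and lung cannot be told apart from day 11 embryo as its source in the pool.

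**Figure D2:**
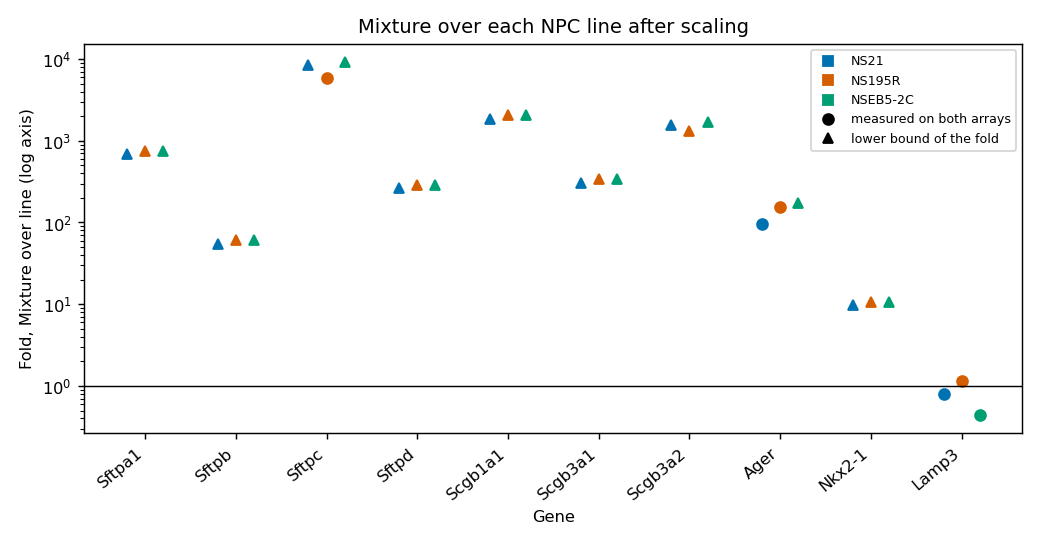
Fold of Mixture over each NPC line (log axis) for the kept probe of each gene after scaling, with circles where both arrays were well above background and triangles where the line was not, so that the value is a lower bound. Bounds run from 9.68 for Nkx2-1 in NS21 to 9288 for Sftpc in NSEB5-2C, and the Lamp3 points lie between 0.436 and 1.16, around a fold of 1.

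Lamp3 was the member that did not pass the test, and its 4 probes disagreed. LAMP3 is a lysosome-associated membrane protein found in the lamellar bodies of type II cells and in mature dendritic cells. The brightest probe, A_52_P142807, read 615 in Mixture and 704, 517 and 1263 in NS21, NS195R and NSEB5-2C. After scaling, its log2 difference between the lines and Mixture was 0.43 (SE 0.72, limma adjusted p = 0.731, n = 3 lines), with the Mixture value inside the range of the 3 lines.

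The probe A_51_P239376 read 20.7 in Mixture and 1.93, 1.88 and 1.73 in NS21, NS195R and NSEB5-2C. It was well above background in Mixture alone, at least 2.83-fold above the lines (limma adjusted p = 0.0244 with every probe tested, lower in 3 of 3 lines). The probe A_52_P104593 read 7.43 in Mixture and 1.78, 1.74 and 1.61 in the lines, and A_52_P54647 read 1.64 in Mixture and 1.46, 1.40 and 1.3. Neither was well above background on any array. A_51_P239376 entered the test through Mixture alone and so had to come out lower, which supports no direction for Lamp3. The value given for the gene differs by probe.

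The probes differ in position and in the transcripts they are listed for. In the files' coordinates, of a genome build not given in the sources used here, the brightest probe is at chr16:19203700-19203759 on the reverse strand. The listed ends of A_51_P239376 span 17930 bases, from 19205496 to 19223425, and begin 1737 bases from the brightest probe. A_52_P104593 and A_52_P54647 start at 19251001 and 19254938. The brightest probe is the only Lamp3 probe listed also for a transcript of another gene, Ppid on chromosome 3, which encodes a cyclophilin.

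The probes named Ppid were measured on all arrays. A_52_P485700 read 2412 in Mixture and 11101, 8375 and 21350.4 in NS21, NS195R and NSEB5-2C, a log2 difference of 2.48 (SE 0.75, limma adjusted p = 0.142). A_51_P101879 read 1146, 5650.2, 4532 and 6905 in the same order, a log2 difference of 2.40 (limma adjusted p = 0.0823 with every probe tested). The brightest Lamp3 probe shares the order of the lines with both (NSEB5-2C highest and NS195R lowest) but not their gap to Mixture. Its scaled log2 values were 1.56, 1.04 and 2.45 in NS21, NS195R and NSEB5-2C, and 1.25 in Mixture. Those of A_52_P485700 were 5.54, 5.05 and 6.52, and 3.22 in Mixture. Those of A_51_P101879 were 4.57, 4.17 and 4.9, and 2.15 in Mixture. The part of Ppid RNA in the signal of the Lamp3 probe was not tested.

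**Figure D3:**
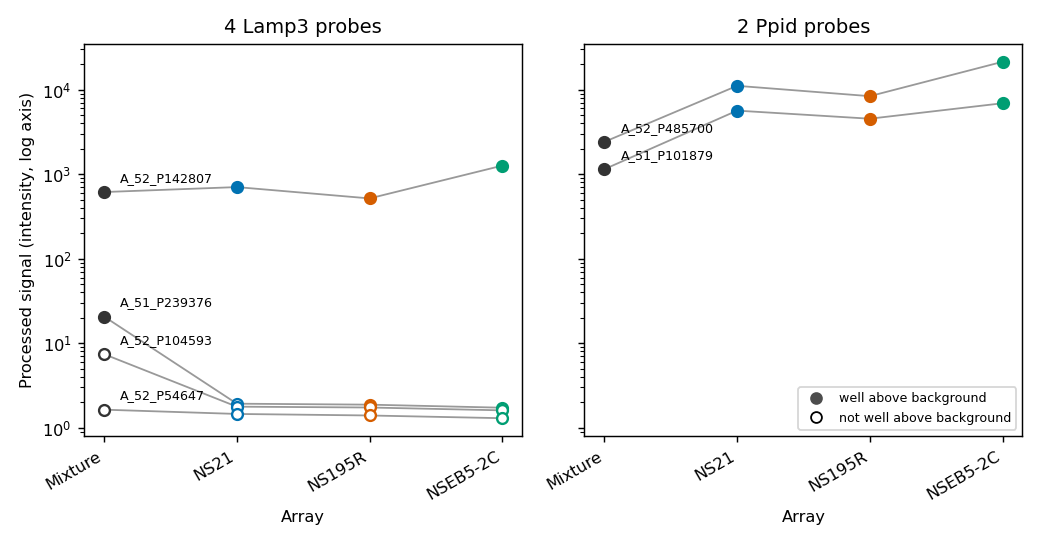
Processed signal (intensity, log axis) of the 4 Lamp3 probes (left) and the 2 Ppid probes (right) on the 4 arrays, each line joining the values of a labelled probe, with open points not well above background. The top Lamp3 probe reads 615 in Mixture and between 517 and 1263 in the lines, A_51_P239376 drops from 20.7 to under 2, and both Ppid probes lie higher in the lines than in Mixture.

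Leaving out probes listed for transcripts of several genes, a setting chosen after the data were seen, made A_51_P239376 the probe for Lamp3. The fitted log2 difference was then -3.39 (limma adjusted p = 0.0228), with all lines under background, so that only the bound of 2.83-fold is measured and the direction was fixed. With the mean of all Lamp3 probes, most of them under background in the lines, it was -1.28 (limma adjusted p = 0.13). Over the settings that kept the brightest probe it ran from 0.05 (without NSEB5-2C) to 1.18 (with median scaling).

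The genes whose 4 scaled values lay closest to those of the brightest Lamp3 probe were Rela, an NF-kappa-B subunit, at a distance of 0.078, the mitochondrial ribosomal protein gene Mrpl35 at 0.105, and Sohlh2 at 0.124. Distance is Euclidean on mean-centred log2 values over the 4 arrays, among 12729 genes well above background on all of them. Ppid, at 1.78, was number 8267 in this order, and the distance takes in the gap to Mixture as well as the values of the lines. No other member was measured on all arrays, so none has such neighbours.

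Each line was also compared with the mean of the others with limma, which called 0 genes in NS21, NS195R and NSEB5-2C, or 0% in each, with 1132, 2081 and 1154 genes at an unadjusted p under 0.05. This comparison has a lone array on 1 side, so the count of 0 says nothing on whether the lines differ. It made no call on simulated data with large changes either. The simulated noise was drawn from the spread between the lines, which holds their differences, so that outcome adds no support. Lamp3 is the member measured in all lines, by its brightest probe alone, which is also listed for Ppid. Against the mean of the others this probe differed by 1.15 on the log2 scale in NSEB5-2C, -0.97 in NS195R and -0.18 in NS21. For the other members at least 1 line was under background, and the differences between lines have no measured size. Among the lines, Sftpc was well above background in NS195R alone, and Ager in NS21 and NS195R but not in NSEB5-2C.

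Faint signal of other pooled tissues occurred in the same lines as that of Sftpc and Ager. In NS195R the heart myosin gene Myh6, by a probe also listed for Myh7, read 21.7 and the thymocyte gene Dntt 27.8. Both were well above background, against 35011 and 7604 in Mixture. In NS21 the atrial myosin light chain gene Myl7 read 39.8, against 9649 in Mixture. The defining markers Alb, Nppa, Umod and Cd3d stayed below that flag in all 3 lines. The part of such signal in the Sftpc and Ager values was not tested.

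Gene lists of related cells and families follow, against the 8.91% of all genes that were lower and the 10.3% well above background in Mixture and in no line. Genes of the latter kind entered the test through Mixture and had to come out lower in any list, so their calls carry no weight of their own. Of 10 tested genes of type II cells and surfactant handling, 4 were lower and 0 higher by limma, and 4 were well above background in Mixture alone, among them 3 of those called (Napsa, Slc34a2 and Cxcl15). The aspartic protease gene Napsa, which processes SFTPB, read 17995 in Mixture and 2.36, 1.58 and 1.51 in NS21, NS195R and NSEB5-2C, at least 2459-fold lower (limma adjusted p = 0.00846). The lysozyme gene Lyz2 read 38227 in Mixture, 12.7 in NS21, 11.8 in NS195R and, not well above background, 1.41 in NSEB5-2C (limma adjusted p = 0.0362). The phosphate transporter gene Slc34a2 was at least 27.1-fold lower (limma adjusted p = 0.00859).

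The protease gene Ctsh did not pass (limma adjusted p = 0.298), reading 10909 in Mixture and 4.07, 1085 and 142 in NS21, NS195R and NSEB5-2C. The lipid enzyme gene Lpcat1 was the member of this list with a ratio above 0 (0.05, SE 0.54, limma adjusted p = 0.956), reading 338 in Mixture and 222, 391 and 401 in the lines. Lpcat1, Abca3, Csf2ra and Csf2rb were well above background in all 3 lines and Ctsh in NS195R and NSEB5-2C, while Sftpa1 and Sftpd were in none. The list's median log2 ratio was -5.57, or -3.93 with dim values set up to the floor used for the bounds, against 0.44 and 0.31 over all genes tested.

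None of 8 type I cell genes, 0 lower and 0 higher, passed limma, also at an unadjusted p under 0.05, and the lines differed widely. The water channel gene Aqp5 read 1844 in Mixture and 2.75, 17.2 and 376 in NS21, NS195R and NSEB5-2C (limma adjusted p = 0.305). Clic5, an intracellular chloride channel gene, read 3565 in Mixture and 21.5, 2889 and 10.1 (limma adjusted p = 0.438), and the homeodomain gene Hopx read 2643 and 20.2, 553 and 254 (limma adjusted p = 0.309). Akap5, a kinase anchor gene, read 401 in Mixture and 147, 34.4 and, not well above background, 5.07 in the same order (limma adjusted p = 0.345). Clic5 in NS195R was thus near its Mixture level while Ager, another type I gene, was 156-fold below it there. The list's median was -3.46, or -3.41 with dim values raised.

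Of 9 tested airway secretory genes, 6 were lower and 0 higher by limma, and those 6 were well above background in Mixture alone, so that their direction was fixed. The club cell cytochrome gene Cyp2f2 read 9420.4 in Mixture and 1.66, 3.63 and 1.49 in NS21, NS195R and NSEB5-2C, at least 1287-fold lower (limma adjusted p = 0.00911). Bpifa1, a secreted airway defence gene, was at least 84.9-fold lower (limma adjusted p = 0.00846). Gsta3, a glutathione transferase gene (limma adjusted p = 0.138), and the retinal dehydrogenase gene Aldh1a1 (limma adjusted p = 0.302) did not pass, Aldh1a1 reading 1460.3 in NS195R. The list's median was -7.00, or -6.41 with dim values raised.

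Of 8 tested genes of ciliated airway cells, 0 were lower and 0 higher by limma, with 4 lower at an unadjusted p under 0.05. Tekt1, a tektin of ciliary microtubules, was at least 22.4-fold lower without passing (limma adjusted p = 0.0714), as were the dynein gene Dnah5 at 2.31-fold (limma adjusted p = 0.0509) and Cdhr3 at 1.72-fold (limma adjusted p = 0.0522), both bounds. Tppp3, a tubulin-binding protein gene, stood at -2.69 on the log2 scale against Mixture (limma SE 1.07 and adjusted p = 0.206). The list's median was -2.26, or -1.62 with dim values raised.

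Of 10 lung epithelial transcription factors, 2 were lower and 0 higher by limma. The ETS factor Elf5, tested through Mixture alone, was at least 17.6-fold lower (limma adjusted p = 0.0458) and Grhl2, an epithelial factor, read 111 in Mixture and 11.7, 8.79 and 10.1 in NS21, NS195R and NSEB5-2C, the NS195R spot not well above background (limma adjusted p = 0.032). Gata6 was above background in NS21 among the lines, at 25.4 against 625 in Mixture (limma adjusted p = 0.102). Etv5, an FGF-induced factor, went against the others with 3.13 (SE 1.31, limma adjusted p = 0.219), reading 22.6 in Mixture and 85.3, 581 and 126 in NS21, NS195R and NSEB5-2C. Foxa2, which acts with NKX2-1 in lung, read 707 in Mixture and 62.6, 28.7 and 954 in the lines. Each line thus had Foxa2 signal well above background, while Nkx2-1 was well above background in none. The list's median was -2.67, or -2.26 with dim values raised.

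Relatives of the members were read in the same way. Of the other collectins, 3 of 5 were lower by limma: Mbl2 at least 1029-fold, Mbl1 at least 60.8-fold and Colec11 at least 77.4-fold (limma adjusted p = 0.00846, 0.00859 and 0.00909), Mbl1 and Mbl2 being lectins of liver. These 3 were tested through Mixture alone, so their direction was fixed. Colec10 did not pass (limma adjusted p = 0.101), and Colec12, 0.30 above Mixture on the log2 scale (limma SE 0.72 and adjusted p = 0.803), was the collectin measured on all 4 arrays. Of 3 tested LAMP relatives 0 passed, with 1 lower at an unadjusted p under 0.05. Lamp1 had a log2 ratio of -0.06 (SE 0.40), Lamp2 of 0.25 (SE 0.38) and Cd68, of macrophages, of -3.43 (limma SE 0.57 and adjusted p = 0.0609). Of secretoglobin relatives only Scgb1b2 was tested, through NS21, where it read 24.2 against 2.79 in Mixture, which was not well above background (limma adjusted p = 0.847).

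Ligands of AGER were measured in the lines although the receptor gene was faint there. Of 9, 2 were lower and 0 higher by limma, both genes of neutrophils: S100a9, with 23899 in Mixture, 16.1 in NS21 and no other line well above background (limma adjusted p = 0.0329), and S100a8, tested through Mixture alone and at least 388-fold lower (limma adjusted p = 0.0278). Hmgb1, a nuclear protein gene, read 10213 in Mixture and 11122, 9934 and 11691 in NS21, NS195R and NSEB5-2C. S100a4 read 3859 in Mixture and 6072, 3257 and 60979.8 in the lines (limma adjusted p = 0.658), and S100a1 stood at -4.85 on the log2 scale against Mixture (limma SE 1.47 and adjusted p = 0.143). S100a6, S100a11, S100a4 and Hmgb1 had ratios above 0, of 0.20 to 1.57, and none passed limma. The list's median was -1.05 with and without dim values raised.

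**Figure D4:**
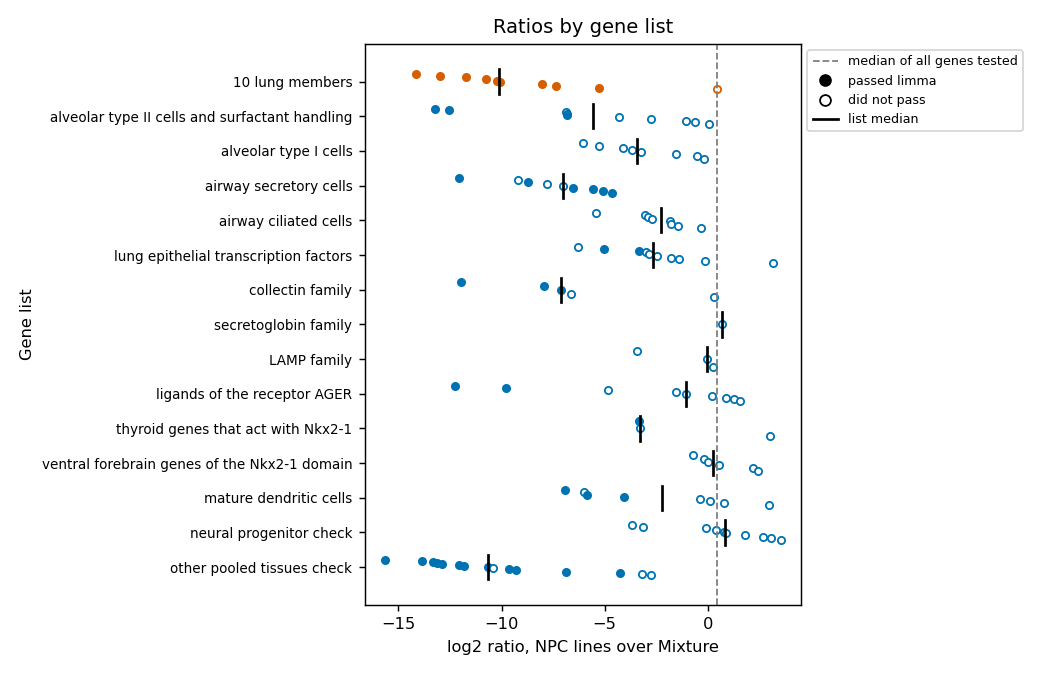
Log2 ratio of the NPC lines to Mixture for the 10 members and each gene of the lists (1 point a gene, filled where limma adjusted p was under 0.05), with the list median as a bar and the median of all genes tested, 0.44, as a dashed line. Of the members 9 lie between -14.14 and -5.30 and Lamp3 at 0.43; genes that were dim in the lines carry their fitted value, which is not a bound.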

How the data were processed

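Total RNA of 1 Mixture and 3 NPC samples was measured on 1-colour arrays. Per the file headers, the authors scanned with Agilent Feature Extraction 9.5.3.1, and its processed intensity, with background removed, and its spot flags were used. The deposited value table held the same intensity at all 45018 features. All arrays were on 1 slide and in 1 scan. From the log2 of each processed signal that of the percentile 75 of its array was taken off, computed over 43379 non-control spots. Outlier spots were left out, copies of 245 repeated probes were averaged, and 19 probes lacking a value on an array were dropped. Names were updated through RefSeq transcripts (22951 probes), listed transcripts (124), symbols (6582) or synonyms (3077), and 8440 kept the file's name. The probe with the highest mean stood for a gene, and a gene entered the test, by limma 3.58.1 in R 4.3.3 and two-sided, where 1 array or more had it well above background. The fit had 2 residual degrees of freedom and a prior worth 1.33, and took the spread of Mixture from the lines. P-values set each fitted ratio against the spread between these lines, moderated by that prior, and the number of arrays limits the precision. They refer to the fitted ratios and not to the bounds printed beside them.

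Named genes are all members, up to 4 genes per list with the largest ratio, and genes against their list's majority. Further names were chosen after values were seen. Members and lists were chosen with earlier results of these data known. Tested on simulated data, the fits recovered the sizes set, called few of the largest changes between lines and Mixture, and called no change of a single line. The simulated noise was drawn from the spread between the lines, so it differs from technical error alone.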

Additional observations from a re-analysis of the deposited data

How the results depend on the processing

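Fitted log2 ratios of the 9 lower members lay between -14.14 and -5.30. They kept their direction and passed limma under each of 8 other settings that kept all 4 arrays and tested them, with adjusted p from 0.00301 to 0.0383. Of these members, 7 entered the main test through Mixture alone, so their unchanged direction carries no weight of its own. With normexp and offset 50 they were smaller, between -9.78 and -1.16. The count of 9 became 0 with the test limited to genes above background everywhere, on all 4 arrays, where Lamp3 alone was tested, and 0 without any 1 of the lines, with 9 still lower at an unadjusted p under 0.05. All genes lower numbered 1767 and higher 188. They became 0 and 0 without any line (limma, with 2819 to 3317 lower and 1433 to 2250 higher at an unadjusted p under 0.05) and 0 and 0 under that limit (710 and 3085 at such a p). Higher genes numbered 969 with normexp, beside 1965 lower, 588 with quantile normalization, beside 1631 lower, 525 with no filter and 473 with an intensity trend. The median ratio of all genes, 0.44, was 1.19 with median scaling, 0.22 with normexp and 0.56 with quantile normalization. Lamp3, at 0.43, reversed to -1.28 with the mean of probes and to -3.39 without probes listed for several genes, both resting on probes under background in the lines. Comparisons between lines gave 0 calls in each setting run, in a design too small to make them. No paired analysis was possible with 1 Mixture array, and the labels give the samples no replicate numbers.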

Other observations

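Sftpa1 and Sftpd are neighbours on chromosome 14 in the RefSeq gene order (assembly GRCm38.p6), with the liver lectin gene Mbl1 between them and the liver enzyme gene Mat1a on the other side of Sftpa1. Mat1a read 2326 in Mixture and 1.90, 1.83 and 1.74 in NS21, NS195R and NSEB5-2C, and Mbl1 read 445 and 1.45, 1.81 and 1.90. Both were tested through Mixture alone, so their direction was fixed (limma adjusted p = 0.00846 and 0.00859). Around the other members the nearest genes mostly kept signal in the lines. Of 16 tested genes next to a member, 9 were well above background in all lines, 2 in none, and the 2 called lower were Mat1a and Mbl1. Of all 19823 genes tested, 12729 were well above background on every array, Mixture included. The share of neighbours with signal in all lines was thus no higher than over all genes. The count of 9 does not set the neighbours apart. Beside Sftpb, the splicing gene Usp39 read 158 in Mixture and 453, 355 and 749 in the lines, and beside Ager the ubiquitin ligase gene Rnf5 read 1198 and 1827, 1697 and 1197. These neighbours were looked at after the members' values were seen.

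Genes of the other tissues that use Nkx2-1 were thinly measured, and thyroid is not among the tissues named for Mixture. Which pooled tissue gave their Mixture signal was not tested. Of 6 thyroid genes 3 were tested, and Pax8, tested through its Mixture signal alone, was at least 3.11-fold lower (limma adjusted p = 0.0431), while Tg read 97.7 in Mixture and 31.3 in NSEB5-2C (limma adjusted p = 0.251). Slc5a5, the iodide transporter gene, went the other way without passing (limma adjusted p = 0.373), reading 58.6 in NS21 and 26.4 in NSEB5-2C against 2.44 in Mixture, which was not well above background. Of 10 ventral forebrain genes 6 were tested and 0 passed limma, also at an unadjusted p under 0.05. Dlx2 read 975 in NSEB5-2C against 12.1 in Mixture (limma adjusted p = 0.658), Nkx2-2 read 302 in NS195R (limma adjusted p = 0.745), and Lhx6 read 101 in NS21 and 113 in NSEB5-2C against 45.6 in Mixture (limma adjusted p = 0.899). Dlx1 read 217 in NSEB5-2C (limma adjusted p = 0.925).

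Genes of mature dendritic cells, the other cell type known for Lamp3, were split. Of 8 tested, 3 were lower by limma: the integrin gene Itgax at least 33.2-fold, the chemokine receptor gene Ccr7 at least 19.6-fold and Cd86 at least 5.38-fold (adjusted p = 0.00859, 0.0443 and 0.0181). Over all genes 8.91% were lower, and these 3 entered the test through Mixture alone, so their direction was fixed. Cd83 did not pass (limma adjusted p = 0.0667), with 541 in Mixture, 17.6 in NS21 and the other lines under background. Fscn1, an actin-bundling gene, lay above Mixture by 2.96 on the log2 scale (limma SE 0.56 and adjusted p = 0.0758), and Ccl17 and Relb, at 0.76 and 0.11, did not pass either.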
